A study of Mus musculus with 135 samples.

Results

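The adult hippocampus keeps making neurons. Stem cells in the dentate gyrus give rise to dividing intermediate progenitors, these give rise to immature granule neurons, and the survivors join the granule cell layer. The genes described here follow that sequence and were chosen by symbol from the count tables of both tissues. Nes (nestin) encodes an intermediate filament of neural stem cells that endothelial cells also make. Mki67 (Ki-67) and Top2a (a topoisomerase of dividing cells) are switched on in cycling cells of any kind. Eomes (Tbr2) is a T-box factor of intermediate progenitors, and in the olfactory bulb it also marks projection neurons. Neurod1, Sox11, Igfbpl1 and Dcx are used as markers of newborn and immature neurons. Dcx was higher in the cortex than in the hippocampus of untreated mice here, and which cells carry it was not tested. Neurod1 is a transcription factor of granule neuron differentiation that mature neurons also use, Sox11 a transcription factor of immature neurons, Igfbpl1 a secreted protein of the IGF-binding family, and Dcx (doublecortin) a microtubule-binding protein of migrating neurons. All 8 genes were found, of 55416 genes in each table.

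Bulk RNA was measured in the hippocampus and the cortex of male Townes mice, 6 months old, in which human globin genes replace those of the mouse. AA mice have the normal human beta-globin and SS mice the sickle form. RSD (repeated social defeat) mice had an aggressive male intruder in their cage for 2 h a day on 6 days in a row, minocycline was given in the drinking water, and tissue was taken after behavioural tests. The hippocampal libraries compared came from 11 AA, 7 SS, 2 AA + RSD, 6 SS + RSD, 18 AA + RSD + minocycline, 14 SS + RSD + minocycline, 1 AA + minocycline and 4 SS + minocycline mice, and those of the cortex from 12 AA and 8 SS mice, every other group being as large as in the hippocampus. The model has the limits of a whole tissue piece: a mouse with fewer cells of a type and a mouse whose cells hold less of an RNA cannot be told apart.

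Of 134 libraries whose group the labels give, 63 of the hippocampus and 65 of the cortex entered the comparisons. Reads on genes ranged from 12869149 to 68731008 per hippocampal library (median 36523234) and from 16295042 to 107713193 per cortical library (median 33848502). In each tissue the library labelled SS + minocycline of mouse 9887 and the library labelled AA + RSD + minocycline of mouse 9877 held identical counts and were left out. The library labelled hippocampus of mouse 9674 (AA + RSD) had the markers of cortex, and the library labelled cortex those of hippocampus, so both were left out. On a score of hippocampal over cortical field markers, with 0% at the median cortical and 100% at the median hippocampal library, the hippocampal libraries kept ranged from 56.5% to 118%. The lowest were those of mice 9810 (56.5%) and 9812 (73.1%), both SS + RSD + minocycline. A list of 6 red cell genes summed to a median of 4.22 CPM (counts scaled to a common library size) in the AA and 105 CPM in the SS hippocampus, but to 67.6 CPM in the library labelled AA of mouse 5844, to 52.1 CPM in the library labelled AA + RSD + minocycline of mouse 5853 and to 4.01 CPM in the library labelled SS + RSD + minocycline of mouse 7078. Results were also computed without these libraries and that of mouse 9631. The mouse numbers in the labels fall into 3 number series, here called A, B and C. All AA + RSD and SS + RSD mice belong to series A and all mice with both RSD and minocycline to series B or C, while untreated mice come from A and B (of the hippocampal SS mice, 2 and 5).

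On GRCm39 the genes lie apart on 8 chromosomes, each given with the GENCODE gene limits. They are Nes on chromosome 3 from 87878385 to 87887758 on the plus strand, and Eomes on chromosome 9 from 118307280 to 118315200 on the plus strand. The other 6 lie on the minus strand: Dcx on chromosome X from 142638838 to 142716307, Sox11 on chromosome 12 from 27384263 to 27392573, Neurod1 on chromosome 2 from 79282865 to 79287294, Igfbpl1 on chromosome 4 from 45809254 to 45826923, Mki67 on chromosome 7 from 135291513 to 135318299 and Top2a on chromosome 11 from 98883769 to 98915062. Annotated genes lie on the opposite strand of Eomes (2), Igfbpl1 (2), Neurod1 (1), Mki67 (1) and Top2a (1), and the strand setting of the counting is not given in the sources used here. Reads of these partners are therefore not told apart with certainty.

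The proliferation genes Mki67 and Top2a are compared with each other across libraries further on. Their promoters are shown here, read from GRCm39 as the 250 bases before the start of the canonical transcript. Capitals mark TTTGAA, the core of the cell cycle homology region, and CCAAT, the CCAAT box, or its reverse complement ATTGG. Both strands were searched and the motifs do not overlap each other.

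Top2a, chr11:98915042-98915291, minus strand: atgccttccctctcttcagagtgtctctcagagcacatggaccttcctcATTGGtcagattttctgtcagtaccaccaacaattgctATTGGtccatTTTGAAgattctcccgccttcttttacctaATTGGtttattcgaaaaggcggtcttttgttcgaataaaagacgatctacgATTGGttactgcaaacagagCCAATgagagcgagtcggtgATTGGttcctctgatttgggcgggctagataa

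Mki67, chr7:135318300-135318549, minus strand: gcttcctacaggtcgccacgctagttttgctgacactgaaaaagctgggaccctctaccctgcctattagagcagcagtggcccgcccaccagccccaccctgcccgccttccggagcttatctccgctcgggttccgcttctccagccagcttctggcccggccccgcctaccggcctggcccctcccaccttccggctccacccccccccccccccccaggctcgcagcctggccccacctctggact

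The Top2a window held 6 CCAAT boxes, 5 of them as ATTGG, and 1 TTTGAA, which begins 153 bases before the start site. The Mki67 window held neither motif. Among 21770 promoters of protein-coding genes of the same length, 36.5% held CCAAT, 15.6% held TTTGAA and 6.06% held both. A match describes letters in the window only.

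Levels in the hippocampus differed widely between the members. Per kilobase of exon, the mean over 63 libraries was highest for Neurod1, at 5.52 CPM per kb, followed by Nes at 1.70, Dcx at 1.32, Sox11 at 1.27, Igfbpl1 at 0.420, Eomes at 0.204, Top2a at 0.0919 and Mki67 at 0.0803 CPM per kb. Dcx and Sox11 lay next to each other, as did Top2a and Mki67, and neither pair differed by more than the spread between libraries. In CPM, which is used from here on, Dcx ranged from 6.47 to 30.3 (median 17.1), Neurod1 from 11.96 to 30.5 (median 15.98), Sox11 from 6.39 to 14.9 (median 10.2) and Nes from 6.35 to 18.7 (median 10.51). These 4 genes had at least 102 counts in every library. The other 4 were thinly covered: Eomes had 0 to 166 counts, Igfbpl1 3 to 448, Mki67 7 to 115 and Top2a 7 to 91. Relative spread followed a different order. The coefficient of variation was 113% for Igfbpl1 and 108% for Eomes, 46.4% for Mki67, 42.9% for Top2a and 36.9% for Dcx, against 19.99% for Nes, 19.7% for Sox11 and 19.1% for Neurod1. Eomes was at 0 in 1 hippocampal library, labelled AA + RSD + minocycline.

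Sickle genotype alone was not accompanied by a called change in any member. Dcx in AA mice had a lowest value of 10.3, a median of 15.6 and a highest of 22.3 CPM, and in SS mice 8.74, 16.7 and 25.6 CPM, with means of 16.2 ± 3.999 (SD, n = 11) and 17.5 ± 6.69 (SD, n = 7). The groups overlapped almost entirely. Neurod1 was at 16.8 ± 2.68 CPM in AA and 16.7 ± 2.14 CPM in SS mice. Nes ranged from 8.19 to 13.1 CPM (median 9.66) in AA and from 8.87 to 18.7 CPM (median 10.51) in SS mice. Mki67 ranged from 0.295 to 0.777 CPM (median 0.583) in AA and from 0.464 to 1.84 CPM (median 0.627) in SS mice, where the highest value stood alone and the next was 0.737 CPM. By the quasi-likelihood test of edgeR, 0 of 8 members were called at an adjusted p under 0.05, 0 had an unadjusted p under 0.05, and DESeq2 called 0, where 0.158% of all 23372 genes tested were called. The same comparison under stress (SS + RSD against AA + RSD, background 0.0171%) also called 0 members with either tool. Of all 23372 genes 667 had an unadjusted p under 0.05, and of the members 1. That was Mki67, at 0.486 and 0.529 CPM in the AA + RSD mice and 0.632 to 2.59 CPM (median 0.913) in the SS + RSD mice. The AA + RSD values rest on 16 and 7 counts. The groups did not overlap, and the log2 fold change was 1.25 (SE 0.50, adjusted p = 1). The share of all genes that separate these small groups without overlap was not counted. Under stress with minocycline (SS + RSD + minocycline against AA + RSD + minocycline), 2.73% of genes were called and 0 members, 0 at an unadjusted p under 0.05 and 0 by DESeq2. The interaction of genotype and RSD likewise gave 0 members by edgeR, 0 at an unadjusted p under 0.05 and 0 by DESeq2, with 0.0128% of genes called.

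**Figure D1:**
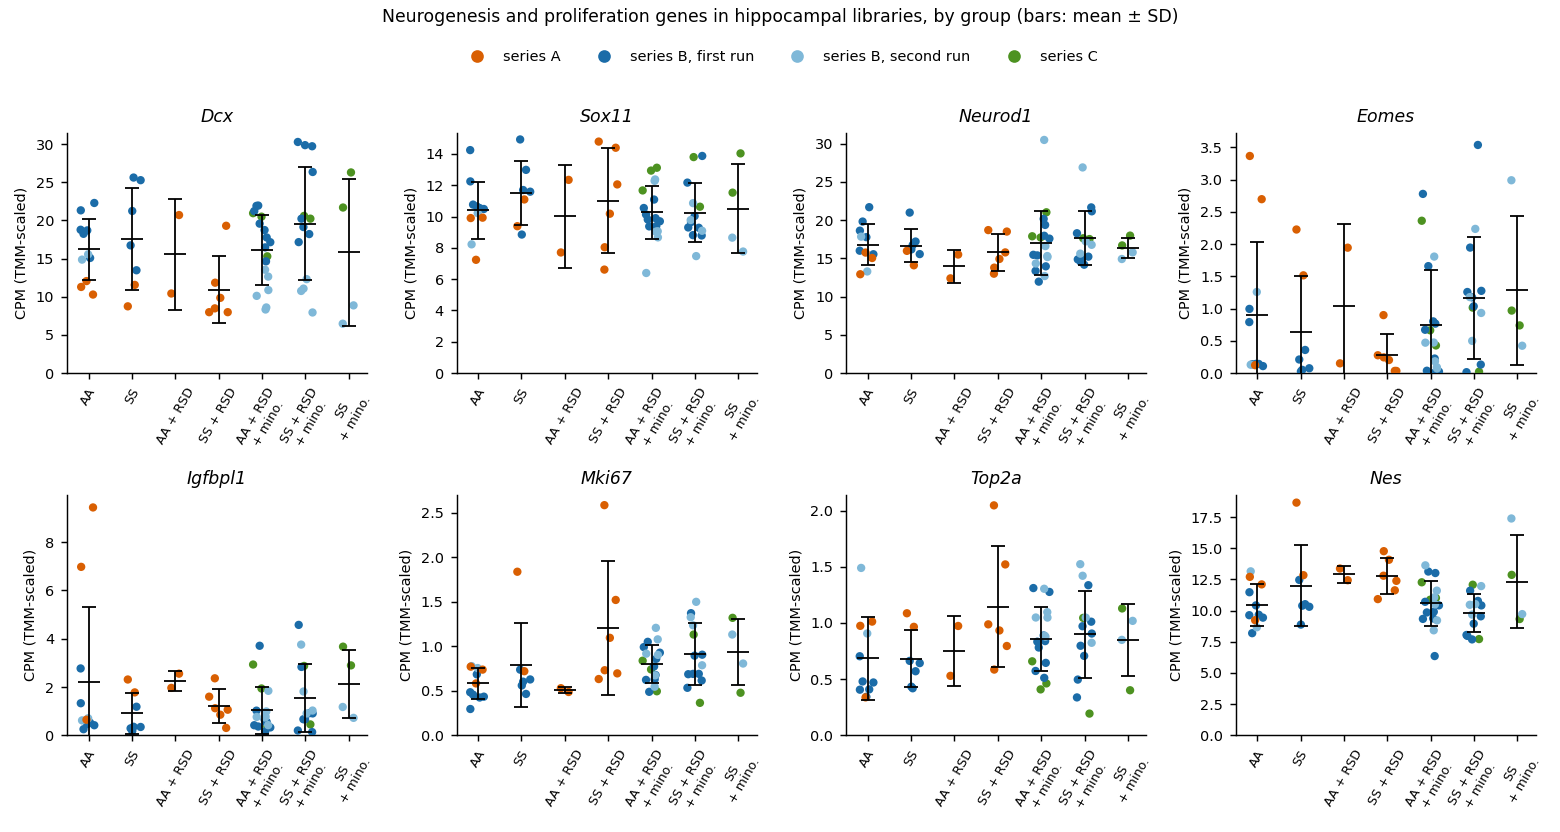
Level of each member in the hippocampus, in CPM, for every library by group, coloured by number series and run of table columns, with bars for mean ± SD. Dcx in the SS + RSD group sits between 7.98 and 19.3 CPM and overlaps the untreated SS group, which starts at 8.74 CPM. Within the SS + RSD + minocycline group Dcx splits by run of columns. The single AA + minocycline library is not drawn.

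Dcx had a lower mean in SS mice after RSD than without it, a difference that did not pass the test. Dcx was at 7.98, 7.98, 8.48, 9.85, 11.8 and 19.3 CPM in the SS + RSD mice and at 8.74, 11.5, 13.5, 16.7, 21.2, 25.3 and 25.6 CPM in the untreated SS mice. Of the 6 stressed mice, 5 lay under 12 CPM, and the ranges overlapped. The log2 fold change was -0.65 (SE 0.32), with an adjusted p of 0.262 by edgeR. Sox11, at 11.01 ± 3.34 against 11.5 ± 2.07 CPM, and Neurod1, at 15.8 ± 2.38 against 16.7 ± 2.14 CPM, differed by -0.03 and -0.04 on the log2 scale. Genes of the cortical field, the tissue where Dcx is higher, summed to 151 to 328 CPM (median 177) in SS + RSD and 143 to 213 CPM (median 179) in SS hippocampus. The highest was that of mouse 9621, which also had the 19.3 CPM of Dcx. With the list as a term, chosen after seeing the data, the Dcx difference was -0.76 (SE 0.29, adjusted p = 0.11). Eomes was at 0.0331, 0.0338, 0.203, 0.244, 0.276 and 0.899 CPM in the stressed mice and from 0.0254 to 2.23 CPM (median 0.211) in the untreated, and Igfbpl1 from 0.304 to 2.36 CPM (median 1.09) and from 0.178 to 2.31 CPM (median 0.351). Eomes overlapped between the groups in the lower part of its range and Igfbpl1 over nearly its whole range, with log2 fold changes of -1.08 (SE 0.94) and 0.46 (SE 0.67).

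The proliferation genes had higher means under stress in SS mice, again short of the threshold. Mki67 was at 0.632, 0.695, 0.731, 1.09, 1.52 and 2.59 CPM in SS + RSD mice, for a mean of 1.21 ± 0.752 against 0.793 ± 0.470 CPM in untreated SS mice. Top2a was at 0.585, 0.794, 0.933, 0.987, 1.52 and 2.05 CPM, for a mean of 1.14 ± 0.540 against 0.682 ± 0.255 CPM. The 2 mice highest in Mki67 were also the highest in Top2a, and the groups overlapped. The log2 fold changes were 0.65 (SE 0.37, adjusted p = 0.336) and 0.79 (SE 0.37, adjusted p = 0.232). Top2a was the only member with an unadjusted p under 0.05, where 4050 of all 20701 genes had one. Both tools called 0 of 8 members, and edgeR called 3.11% of all genes. Microglial marker genes summed to 358 to 517 CPM in SS + RSD and 285 to 414 CPM in SS mice, and their part in the Mki67 and Top2a values was not tested. Nes was at 12.8 ± 1.45 CPM against 12.003 ± 3.23 CPM (log2 fold change 0.12, SE 0.16).

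All 6 SS + RSD mice belong to series A, and against the 2 untreated SS mice of that series the Dcx difference was not seen. Those mice had 8.74 and 11.5 CPM of Dcx, inside the range of the stressed mice. With number series as a term the log2 fold change of Dcx was 0.12, and in series A alone 0.15, against -0.65 without the term. Mki67 went from 0.65 to -0.05, Igfbpl1 from 0.46 to -0.71 and Nes from 0.12 to -0.28 with the term, and Top2a from 0.79 to 0.19. Eomes kept its negative sign. It had 80 and 99 counts in the 2 untreated SS mice of series A and 1 to 40 counts in the 6 SS + RSD mice. These ranges did not overlap, and the share of all genes that separate such small groups was not counted. With the term 0 of 20701 genes were called. In the AA mice the effect of RSD rested on 2 stressed mice, whose Dcx values of 20.7 and 10.4 CPM lay at either end of the range of untreated AA mice. In that comparison 0 members were called, 0 had an unadjusted p under 0.05 and DESeq2 called 0, with 0.0419% of genes called.

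When minocycline was given during RSD, SS mice had a higher mean of Dcx and a lower mean of Nes than SS + RSD mice, differences that DESeq2 called and edgeR did not. This comparison and the one before it share the 6 SS + RSD mice. Dcx was at 7.94 CPM at the lowest, 19.7 at the median and 30.3 at the highest in SS + RSD + minocycline mice, against 7.98, 9.16 and 19.3 CPM in SS + RSD mice. The means were 19.6 ± 7.42 (SD, n = 14) and 10.9 ± 4.37 CPM (SD, n = 6), and the ranges overlapped. The log2 fold change was 0.82 (SE 0.29, adjusted p = 0.0763 by edgeR and 0.0415 by DESeq2). The cortical field genes summed to 133 to 487 CPM (median 186) with minocycline. Mice 9810 and 9812, with 487 and 272 CPM of these genes, had 29.7 and 30.3 CPM of Dcx, among the highest values. Without these 2 mice, chosen after seeing the data, the Dcx difference was 0.66 (SE 0.30, adjusted p = 0.184), and with the list as a term it was 0.80 (SE 0.26, adjusted p = 0.0588). Nes ranged from 7.69 to 12.1 CPM (median 10.04) with minocycline and from 10.9 to 14.8 CPM (median 12.6) without, a log2 fold change of -0.40 (SE 0.14, adjusted p = 0.0727 by edgeR and 0.0465 by DESeq2). Endothelial marker genes, a cell type that also makes Nes, summed to 157 to 303 CPM with minocycline and 303 to 328 CPM without. All 7 passed the filter on low counts and 2 of them were called lower, and their part in the Nes values was not tested.

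The other members did not pass either test in this comparison. Eomes was at a median of 1.11 CPM (0.0140 to 3.54) with minocycline and 0.223 CPM (0.0331 to 0.899) without, a log2 fold change of 1.95 (SE 0.89, adjusted p = 0.156). Mki67, at 0.909 ± 0.348 against 1.21 ± 0.752 CPM, and Top2a, at 0.900 ± 0.386 against 1.14 ± 0.540 CPM, differed by -0.44 and -0.36 on the log2 scale, with overlapping ranges. Sox11, Neurod1 and Igfbpl1 differed by -0.12, 0.14 and 0.32. In all, edgeR called 0 of 8 members and 5.96% of all genes. An unadjusted p under 0.05 was found for 3 members (Dcx, Nes and Eomes) and for 5539 of all 20701 genes. DESeq2 called 2 members, and its share over all genes is not given. The groups share no number series. With number series as a term the difference of Dcx was -0.25, that of Nes 0.23, of Mki67 0.71 and of Top2a 0.63, and 0 of 20701 genes were called. Treatment and number series cannot be told apart here other than through the untreated SS mice.

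No member passed the test for minocycline without stress. In SS + minocycline mice Dcx was at 6.47, 8.87, 21.7 and 26.3 CPM, so that the 4 mice fell into a low and a high pair around the untreated mean of 17.5 CPM. Eomes was at 0.424, 0.739, 0.970 and 2.99 CPM and Igfbpl1 at 0.721, 1.17, 2.90 and 3.67 CPM. By edgeR 0 members were called, 0 had an unadjusted p under 0.05 and DESeq2 called 0, with 0.0% of genes called. SS + RSD + minocycline mice against untreated SS mice gave 0 called members by both tools and 1, Nes (-0.27, SE 0.13), at an unadjusted p under 0.05, with 0.0% of genes called. Of all 20701 genes 759 had an unadjusted p under 0.05. AA + RSD + minocycline against AA + RSD mice gave 0 by edgeR, 0 at an unadjusted p under 0.05 and 0 by DESeq2, with 0.0419% of genes called. Against untreated AA mice it gave 0 by both tools, with 0.0% of genes called. Of all 21486 genes 704 had an unadjusted p under 0.05, and of the members 2. These were Mki67, with a log2 fold change of 0.47 (SE 0.16) at 0.801 ± 0.209 against 0.582 ± 0.171 CPM, and Igfbpl1, with a log2 fold change of -1.09 (SE 0.51).

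**Figure D2:**
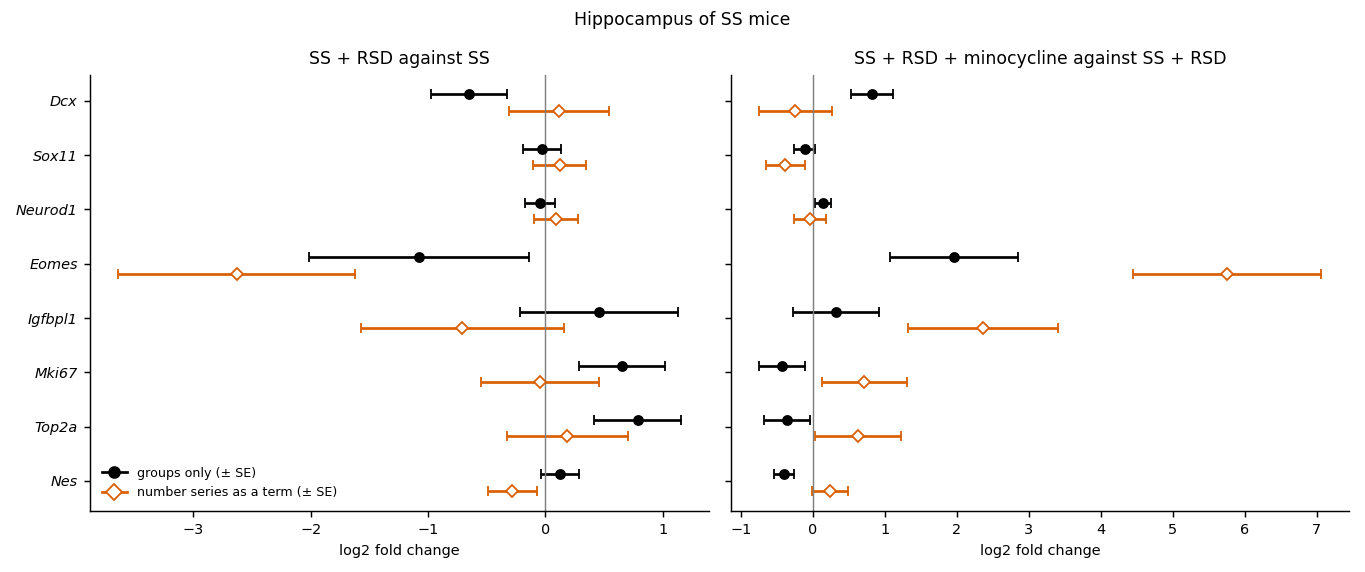
Log2 fold change ± SE of each member in the hippocampus for SS + RSD against SS and for SS + RSD + minocycline against SS + RSD, fitted with groups only and with number series as a term. Dcx goes from -0.65 to 0.12 in the first comparison and from 0.82 to -0.25 in the second.

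Untreated mice of series B and series A differed in most members. In a fit with genotype as a term, edgeR called 6 of 8 members and DESeq2 6, where edgeR called 44.3% of 19237 genes. Of the immature neuron genes, Dcx was higher in series B, at a mean of 19.01 against 10.8 CPM (log2 fold change 0.82, SE 0.14, adjusted p = 0.000282), and so was Neurod1 (0.25, SE 0.10, adjusted p = 0.0413). The 5 untreated mice of series A had Dcx values of 8.74, 10.3, 11.3, 11.5 and 12.1 CPM, and the 13 of series B ranged from 13.5 to 25.6 CPM, so the series did not overlap. Igfbpl1 (-2.51, SE 0.51, adjusted p = 0.000907), Eomes (-2.85, SE 0.65, adjusted p = 0.002), Mki67 (-0.69, adjusted p = 0.0286) and Nes (-0.34, adjusted p = 0.0299) were lower in series B. Eomes was at 0.123, 1.52, 2.23, 2.70 and 3.37 CPM in series A, where 4 of 5 mice lay above the highest value of 1.26 CPM in series B. Sox11 (0.26) and Top2a (-0.55) were not called. With a further term for the percentage of reads outside genes, Dcx was the 1 member called, and the share of all genes called in that fit is not given.

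Inside the groups with both RSD and minocycline, Dcx divided by the place of a library in the tables. The columns of series B return to the untreated AA mice partway, which divides the series into a first and a second run of columns, a division made after the values were seen and therefore given without a test. Dcx in the hippocampus ranged from 7.98 to 20.7 CPM in series A (median 10.4, 13 libraries), from 13.5 to 30.3 in the first run of series B (median 19.3, 28 libraries), from 6.47 to 15.6 in the second run (median 10.8, 14 libraries) and from 15.3 to 26.3 in series C (median 20.8, 8 libraries). The same split lay inside the groups with both RSD and minocycline. In SS + RSD + minocycline mice the 8 libraries of the first run had 17.2 to 30.3 CPM and the 4 of the second 7.94 to 12.3 CPM, and in AA + RSD + minocycline mice the 9 of the first run had 14.6 to 21.9 CPM and the 6 of the second 8.33 to 13.5 CPM. Neither pair of ranges overlapped. In untreated AA mice, with 6 libraries in the first run and 2 in the second, the ranges did overlap. The share of all genes that divide by run was not counted. The low pair of SS + minocycline mice was in the second run and the high pair in series C.

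The share of reads that fell outside annotated genes went along with these values. It was 3.98% to 5.73% in series A, 6.49% to 24.01% in the first run of series B, 4.22% to 9.48% in the second run and 7.47% to 9.38% in series C. Medians of Nes were 12.7, 9.87, 10.51 and 10.9 CPM in the same order and those of Mki67 0.731, 0.653, 0.910 and 0.789 CPM, with overlapping ranges throughout. Whether library preparation, sequencing date or the mice themselves differ between the runs is not given in the sources used here, and their part in the Dcx values was not tested.

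**Figure D3:**
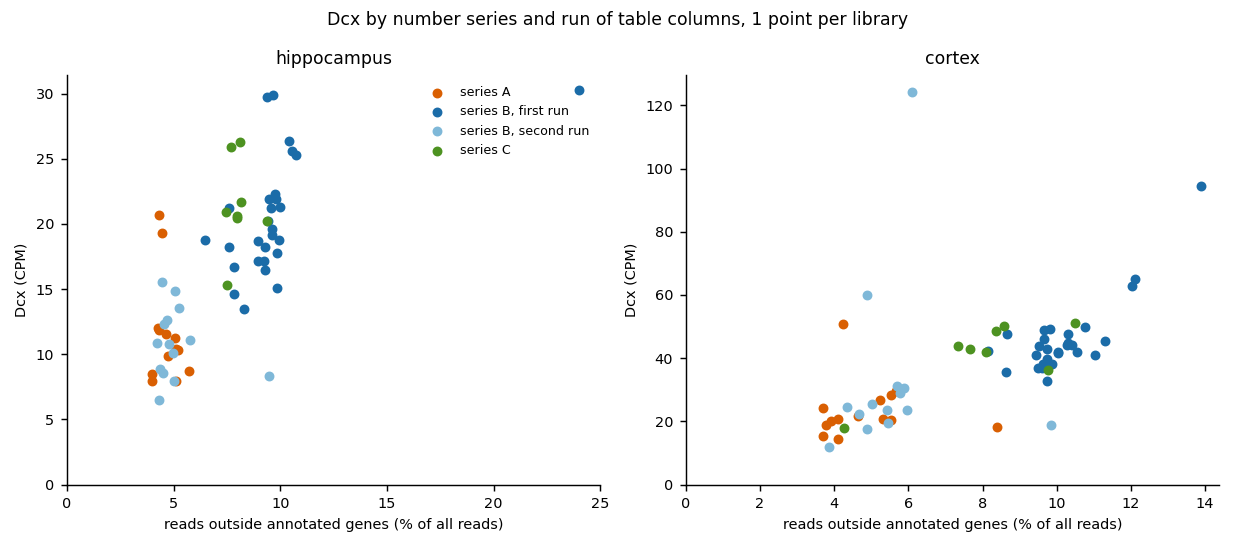
Dcx in CPM against the percentage of reads outside annotated genes, for every library of the hippocampus and the cortex, coloured by number series and run of table columns. Hippocampal libraries of series A and of the second run of series B sit at low values on both axes, with medians of 10.4 and 10.8 CPM, and those of the first run and of series C at higher ones, with medians of 19.3 and 20.8 CPM.

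Few other genes of the lineage passed the test in the stress comparisons. Lists of 12 neural stem cell, 10 intermediate progenitor, 18 immature granule neuron, 18 S phase and 22 G2 and M phase genes were set beside the members. In SS + RSD against SS mice edgeR called 0 in each list, and 1, 0, 1, 1 and 2 genes in this order had an unadjusted p under 0.05. Of all 20701 genes, 3.11% were called and 4050 had an unadjusted p under 0.05. The list medians ran from 0.05 for intermediate progenitors to 0.36 for G2 and M phase genes, against 0.06 over all genes tested. In SS + RSD + minocycline against SS + RSD mice, where 5.96% of all genes were called, 1 gene of the lists was. It was Ccna2 (cyclin A), higher by 0.81 (SE 0.25, adjusted p = 0.0481). That call is lost with number series as a term, where 0 of 20701 genes were called. The list medians there ran from -0.15 to -0.07, against -0.03 over all genes.

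Between untreated mice of series B and A, where 44.3% of all genes were called, most called genes of the lists were lower in series B. The called share was below that background among intermediate progenitor genes and among G2 and M phase genes. Of 12 stem cell genes 7 were lower, among them Thrsp (-0.91), of 18 immature granule neuron genes 9 were lower, among them Calb2 (-0.82), and 1 was higher. Of 10 intermediate progenitor genes 3 were lower and 1 higher (Neurod4, 1.33). Of 18 S phase genes 8 were lower, among them Mcm6 (-1.19) of the replicative helicase, and 2 higher, among them Hells (0.75). Of 19 G2 and M phase genes tested, 4 were lower, among them Cdk1 (-0.94), and 2 higher, Ccna2 (0.82) and Ccnb2 (0.68). The list medians ran from -0.46 to -0.24, against 0.00 over all genes. Dcx, with a log2 fold change of 0.82, went the other way from the 9 lower genes of the immature granule neuron list. Ependymal markers (5 of 5 lower), endothelial markers (5 of 7) and microglial markers (5 of 6) moved too, and their part in the members' values was not tested.

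The members differed between the tissues in both directions. In untreated AA mice edgeR called 36.6% of 19255 genes, with 4 members higher and 2 lower in the hippocampus than in the cortex. DESeq2 called 6 members. In untreated SS mice edgeR called 30.6% of genes, with 2 members higher and 1 lower, and DESeq2 called 4 members. Neurod1 averaged 16.8 against 8.02 CPM in AA mice (log2 fold change 1.06, SE 0.10, adjusted p = 8.34e-12) and 16.7 against 7.60 CPM in SS mice (1.11, SE 0.12, adjusted p = 1.03e-09). It was higher in the hippocampus of 11 of 11 AA and 7 of 7 SS mice. Sox11 was higher in 10 of 11 and 7 of 7 mice, with log2 fold changes of 0.35 (adjusted p = 0.0131) and 0.59 (adjusted p = 0.00118).

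Dcx went the other way. It averaged 16.2 CPM in the hippocampus against 33.2 CPM in the cortex of AA mice (-1.03, SE 0.18, adjusted p = 1.49e-05) and 17.5 against 36.5 CPM in SS mice (-1.08, SE 0.23, adjusted p = 0.000234). It was higher in the hippocampus of 0 of 11 AA and 0 of 7 SS mice, with log2 ratios within a mouse from -1.62 to -0.53. Mki67 averaged 0.582 against 1.35 CPM in AA mice (-1.20, SE 0.30, adjusted p = 0.00116), lower in the hippocampus of 11 of 11, while in SS mice the difference of -0.49 (SE 0.36) was not called and 1 of 7 mice had more in the hippocampus. Whether the genotypes differ in this was not tested. A list of 5 striatal genes, Drd2 (a dopamine receptor) among them, summed to 44.3 to 192 CPM (median 61.3) in the AA cortex and 25.6 to 42.4 CPM in the AA hippocampus, and 4 of 5 were called lower in the hippocampus. Their part in the Mki67 and Top2a values was not tested. Top2a had a log2 fold change of -0.80 (SE 0.38, adjusted p = 0.104) in AA mice. In the fit with mouse number as replicate block, which pairs the tissues of an animal, it was -0.78 (adjusted p = 0.00365) and called, so that 7 AA members were called in place of 6. The SS count stayed at 3. Nes differed by -0.01 (SE 0.12) in AA and -0.13 (SE 0.15) in SS mice.

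Eomes and Igfbpl1 were low in both tissues, and lower in the cortex of most untreated mice. Eomes was higher in the hippocampus of 11 of 11 AA mice and 5 of 7 SS mice, but its AA cortical libraries held 0 to 5 counts, so the fitted log2 fold change of 4.18 (SE 0.80, adjusted p = 4.08e-05) depends on the prior count. In SS mice the Eomes log2 fold change was 2.08 (SE 0.88) and was not called, and in series B alone it took the opposite sign. Igfbpl1 was higher in 9 of 11 AA mice (2.05, SE 0.62, adjusted p = 0.00729) and in 5 of 7 SS mice (1.07, SE 0.78, not called). Both mature dentate granule markers and the immature granule neuron list were on the hippocampal side: 5 of 5 and 10 of 18 genes were higher in AA mice, with Gal (3.92), Prox1 (2.59), Nnat (2.22) and Calb2 (1.82) leading. Stmn1 (-1.53) was among the 4 of 18 that were lower. Of 20 G2 and M phase genes tested 6 were lower in the hippocampus, Ccnb1 (-1.87), Hmmr (-1.79) and Kif23 (-1.58) by the most, and 2 higher. In SS mice 9 of 18 immature neuron genes were higher and 4 lower, and 2 of 20 G2 and M phase genes higher and 4 lower. Choroid plexus markers (8 of 8 higher in AA hippocampus, 2 of 8 in SS) and ependymal markers (5 of 5 and 4 of 5) also differed, and their part was not tested.

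**Figure D4:**
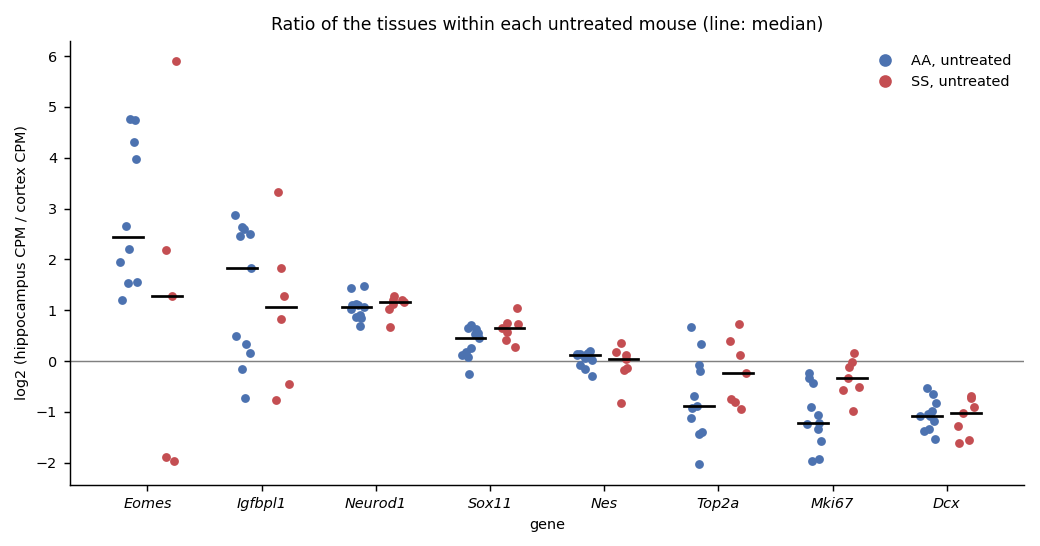
Log2 ratio of hippocampus to cortex for each member in each untreated mouse, AA and SS, with libraries at 0 left out. All Neurod1 points lie above 0 and all Dcx points below it, between -1.62 and -0.53, and Nes lies around 0.

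In the cortex no member was called in a comparison of treatment groups by edgeR. For SS against AA mice 0 members were called, 0 had an unadjusted p under 0.05 and DESeq2 called 0 (background 0.206%). SS + RSD against AA + RSD (background 0.0%), the interaction (0.0%), SS + minocycline against SS (0.0%), AA + RSD against AA (0.0%) and AA + RSD + minocycline against AA + RSD (0.0%) gave the same 0, 0 and 0. SS + RSD + minocycline against AA + RSD + minocycline gave 0 by both tools and 1 member at an unadjusted p under 0.05 (background 0.599%), and SS + RSD against SS also 0 and 1 (background 2.57%). Of all genes, 2035 of 22870 and 5508 of 19906 had an unadjusted p under 0.05 in these comparisons. SS + RSD + minocycline against SS gave 0 by both tools and 3 at an unadjusted p under 0.05 (background 0.0%), and AA + RSD + minocycline against AA gave 0 and 1 (background 0.0503%). Here 1227 of 19906 and 1506 of 21861 genes had an unadjusted p under 0.05.

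Dcx in the cortex of most SS + RSD mice lay below that of untreated SS mice, a difference that did not pass the test. It was at 14.5, 15.4, 18.3, 20.3, 20.8 and 50.7 CPM in SS + RSD mice, from 21.7 to 49.2 CPM (median 38.2) in SS mice and from 17.5 to 124 CPM (median 41.5) in SS + RSD + minocycline mice. Of the 6 stressed mice, 5 lay below every untreated SS mouse. The log2 fold change was -0.59 (SE 0.38, adjusted p = 0.295 by edgeR). All 6 stressed mice belong to series A, and of the untreated SS mice 2 belong to series A and 6 to series B. With number series as a term 0 of 19906 genes were called in this comparison. Against SS + RSD mice, the minocycline group had a log2 fold change of 0.92 (SE 0.35, adjusted p = 0.0895 by edgeR and 0.0322 by DESeq2). In that comparison edgeR called 0 members and 8.85% of genes. An unadjusted p under 0.05 was found for 2 members (Dcx and Nes) and for 5252 of all 19906 genes. DESeq2 called 1 member. Without mouse 9621 of the SS + RSD group, whose cortex held 50.7 CPM, the value was 1.33 (adjusted p = 0.0288), and with number series as a term it was 0.22 (adjusted p = 1). Between untreated mice of series B and A, Dcx averaged 39.47 and 23.005 CPM (0.80, SE 0.13, adjusted p = 0.000239). It was the 1 member called of 7 tested by edgeR, which called 42.8% of genes, and DESeq2 called 2 members. Of the lineage and cell cycle lists, Ccnb2 (0.81) and Ccna2 (0.77) were higher and Mfap4 (-0.69) lower in SS + RSD + minocycline than in SS + RSD cortex. These groups share no number series, and with number series as a term 0 of 19906 genes were called. Cd24a (0.94) was higher in SS + RSD + minocycline than in AA + RSD + minocycline cortex.

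Eomes in the cortex was near 0 in most libraries and high in a few. It was at 0 in 18 of 65 libraries, with a median of 1 count, and reached 39.97 CPM (3209 counts) in a mouse labelled SS + RSD + minocycline. The 4 highest were that mouse (9890), an AA + RSD + minocycline mouse at 24.9 CPM (5648), an SS + RSD mouse at 11.4 CPM (9621) and an SS + RSD + minocycline mouse at 6.07 CPM (9813). In these 4 the olfactory bulb genes Tbx21, Cdhr1 and Doc2g summed to 330, 222, 120 and 124 CPM, and in every other cortical library to 42.3 CPM or less. Dcx in the cortex was highest, at 124 CPM, in the same mouse as Eomes. In the hippocampus these 3 genes summed to 9.19 to 22.4 CPM in AA and SS mice. The list was chosen after the values were seen, and its part in the Eomes values was not tested. Without these 4 libraries the Dcx difference between SS + RSD + minocycline and SS + RSD mice was 1.05 (adjusted p = 0.0414).

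**Figure D5:**
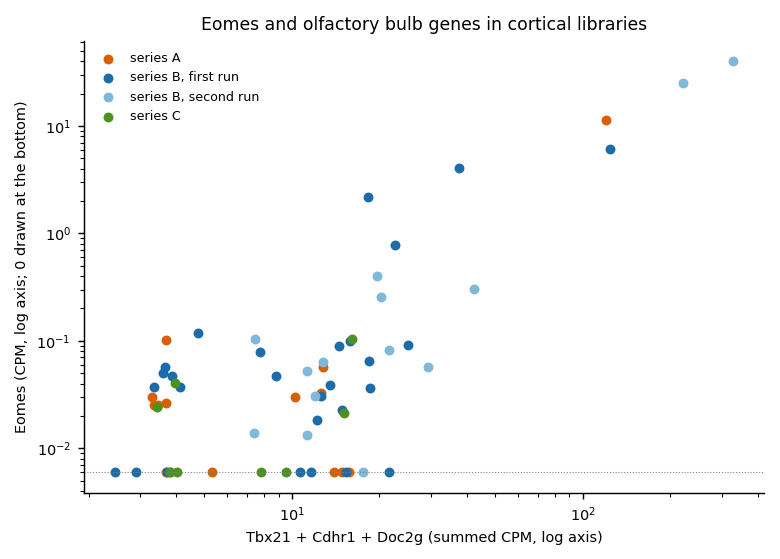
Eomes against the sum of the olfactory bulb genes Tbx21, Cdhr1 and Doc2g in each cortical library, both in CPM on log axes, with Eomes at 0 drawn at the bottom. The 4 libraries above 100 CPM on the horizontal axis have Eomes at 6.07 to 39.97 CPM.

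Some pairs of members went together across hippocampal libraries. With group means subtracted, 28 pairs were compared over 62 libraries on the log2 CPM scale, with 2-sided permutation tests of 100000 resamples, and 15 passed both the Pearson and the Spearman test after adjustment over the pairs, 8 of them with a positive sign. Of these 15, 5 include Dcx, whose level divides by run of columns, and of the other 10, 7 were positive. The tests removed group means and not the runs. The share of other gene pairs that would pass was not computed, so the counts only describe these libraries. Eomes and Igfbpl1 had a Pearson r of 0.68 and a Spearman rho of 0.66, each with a permutation p of 1e-05, the smallest the resamples can give (adjusted 0.00014). Without the 2 libraries farthest out in Eomes r was 0.65. Within series A it was 0.84 (13 libraries), in the first run of series B 0.71 (28), in the second run -0.06 (14) and in series C 0.88 (7), so the relation was not seen in the second run. Mki67 and Top2a had r 0.66 and rho 0.64 (permutation p = 1e-05, adjusted 0.00014 for both) and 0.63 without the 2 farthest. Their r was 0.67 in series A, 0.30 and 0.04 in the runs of series B and 0.94 in series C, so it did not hold within the second run.

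Sox11 and Neurod1 had r 0.44 (permutation p = 0.0004, adjusted 0.00224) and rho 0.49 (permutation p = 7e-05, adjusted 0.000653), and 0.40 without the 2 farthest. Their r was 0.65 in series A, 0.32 and 0.35 in the runs of series B and 0.41 in series C, positive in each. Because Dcx falls into separate levels by run, it is given within runs only. With Sox11 its r was 0.37 in series A, 0.10 and -0.04 in the runs of series B and 0.10 in series C. With Mki67 it was 0.05, -0.0044, 0.04 and 0.02 in the same order. With other members it was not near 0 throughout: in the second run r was 0.61 with Top2a, -0.53 with Nes and 0.48 with Neurod1, and in series C 0.65 with Igfbpl1 and -0.64 with Neurod1, over 14 and 7 libraries. With Igfbpl1 it was -0.47 in series A.

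The genes with the pattern most like each member were taken over the same 62 libraries and 14694 genes as a description, since these libraries also share their runs. For Dcx they were Pcdh15 (r 0.93), Rufy2 (0.93) and Atp11b (0.92), and for Eomes Ebf3 (0.83), Lbhd2 (0.82) and Ctxn3 (0.71). Igfbpl1 was most like Lbhd2 (0.91), the dopamine receptor gene Drd2 (0.83) and Prkcd (0.82). The 5 striatal genes summed to 25.6 to 42.4 CPM in AA and 23.9 to 32.7 CPM in SS hippocampal libraries, and their part in the Igfbpl1 values was not tested. Sox11 was most like Irf2bp2 (0.72), Gtf2a1 (0.71) and Ccpg1 (0.71), and Neurod1 like Ccdc85a (0.77), Yy1 (0.76) and Nfia (0.74). Mki67 was most like Lcp1 (0.66), Gbp2 (0.64) and Mpeg1 (0.60), of which Lcp1 and Mpeg1 are genes of myeloid cells. Top2a was most like Cmtm6 (0.67), the endothelial gene Pecam1 (0.64) and Wwtr1 (0.64), and Nes like Uaca (0.71), Rrbp1 (0.67) and Icam1 (0.65), the adhesion molecule of activated endothelium. In the cortex, over 64 libraries, Nes was most like Cd93, Cdh5 and Tek (0.69 each), all endothelial genes. Drd2 was the gene most like Mki67 (0.77), Top2a (0.72) and Igfbpl1 (0.80) there. Eomes was most like Cacng5 (0.89), Sp8 (0.88) and Th (0.86).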

How the data were processed

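Strand-specific libraries of polyadenylated RNA were sequenced from a single end. Per the labels and the study's methods, the authors used STAR with GRCm39 and deposited, per tissue, raw read counts on GENCODE genes. The annotation release and the strand setting are not given in the sources used here. Each table lists 55416 genes, 5111 without a symbol, and 3 columns with no match among the grouped libraries were set aside. Of 135 samples 1, whose labels name different tissues, was not assigned. The lines for reads unmapped or outside genes stayed out of library sizes and tests (3.98% to 24.01% of a hippocampal library fell outside genes).

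The analysis used edgeR 4.0.16 under R 4.3.3. Genes passed filterByExpr (minimum count 10, minimum total 15), libraries were scaled by TMM, and all genes were tested by the quasi-likelihood test with Benjamini-Hochberg adjustment and called at an adjusted p under 0.05. CPM were computed from TMM-scaled library sizes. Comparisons within a genotype used a model of all groups of that genotype, comparisons between genotypes a model of all groups, the number series a model of untreated mice with genotype, and tissues a model of all untreated libraries. The Wald test of DESeq2 1.42.0 was an alternative. Every share of all genes called is that of edgeR, and the share called by DESeq2 is not given. Each mouse number in both tissues is 1 animal. Of 18 untreated mice with both tissues, the deviations from group means correlated over 0.1 in 15 (median 0.29, lowest -0.26), and the block is given where it changes a call. P-values measure the spread between these mice, and read counts set the precision of the thinly covered members. The tests were tested on simulated data.

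Named genes are the 8 members, the called genes of 5 lineage and cell cycle lists with the largest changes (at most 4 each way in a comparison), and for each member the 3 genes with the most similar pattern. Members, lists and rules were chosen with earlier results of these data known. The olfactory bulb and striatum lists, the runs of table columns, the alternatives that use them and those that address cortical field genes in the hippocampus were added after seeing the data. Gene limits and promoters come from a GENCODE annotation of GRCm39. The alternatives were RLE size factors, DESeq2, no filter, only the groups compared, further terms (number series, share of reads outside genes, the mature granule neuron list, the cortical field list within a genotype and between series, column run), single number series, keeping the libraries of mouse 9674, leaving out libraries and plain CPM. The lists of other cell types served to check the libraries.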

Additional observations from a re-analysis of the deposited data

Results flagged for a closer look

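In groups of 4 to 10 libraries the highest or lowest value was set against the gap to its neighbour, by Dixon's criterion at 95%, in 48 combinations of group and member. Of these, 7 had a value far from the others, in each case the highest. The criterion's chance rate of about 1 in 20 holds for normally distributed values. CPM of thinly covered genes need not be so distributed, so the 7 cannot be set against that rate.

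In the hippocampus of SS mice, mouse 5349 stood apart with 1.84 CPM of Mki67, the next value being 0.737 CPM, and with 18.7 CPM of Nes, the next being 12.8 CPM. In the SS + RSD hippocampus, mouse 9621 stood apart with 19.3 CPM of Dcx (next 11.8 CPM) and mouse 9615 with 0.899 CPM of Eomes (next 0.276 CPM). In the cortex, mouse 9621 of the SS + RSD group stood apart with 50.7 CPM of Dcx (next 20.8 CPM) and with 11.4 CPM of Eomes (next 0.0301 CPM), and mouse 9848 of the SS group with 0.781 CPM of Eomes (next 0.119 CPM). Mouse 9621 was thus high in Dcx in both tissues, and its cortex is among the 4 libraries with the most olfactory bulb RNA.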

How the results depend on the processing

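Of the log2 fold changes of members recomputed under the alternatives, 40 took the opposite sign, most of them in the RSD comparisons of the hippocampus. For SS + RSD against SS mice, with number series as a term the values were 0.12 for Dcx, 0.12 for Sox11, 0.091 for Neurod1, -0.71 for Igfbpl1, -0.045 for Mki67 and -0.28 for Nes. In series A alone they were 0.15, 0.15, 0.12, -0.69, -0.030 and -0.26, and in a fit with column runs 0.12, 0.12, 0.092, -0.70, -0.042 and -0.28. The percentage of reads outside genes as a term gave 0.055 for Sox11 and -0.020 for Igfbpl1. Leaving out an SS + RSD mouse gave -0.88 to -0.57 for Dcx, -0.13 to 0.079 for Sox11, positive without mouse 9615 (0.079) or 9616 (0.038), and -0.10 to 0.0037 for Neurod1, positive without mouse 9615. For SS + RSD + minocycline against SS + RSD mice, number series as a term gave -0.25 for Dcx, -0.043 for Neurod1, 0.71 for Mki67, 0.63 for Top2a and 0.23 for Nes, the run of columns -0.12 for Neurod1, 0.45 for Mki67, 0.40 for Top2a and 0.13 for Nes, and the reads outside genes 0.094 for Top2a. In series B against A that share gave 0.13 for Top2a. Between tissues, Nes in AA mice was 0.0016 without a filter, 0.0094 with only the groups compared, 0.035 with the replicate block and 0.013 in series B, Nes in SS mice was 0.18 in series A, and Eomes in SS mice was -0.39 in series B. The cause was not tested.

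Counts of called members moved by more than 1.5 times in 11 cases, and 338 did not. In the hippocampus, SS + RSD + minocycline against SS + RSD gave 2 with DESeq2 and 1 (Nes) with only the groups compared, and series B against A gave 3 without a filter and 1 (Dcx) with the share of reads outside genes. In the cortex, SS + RSD + minocycline against SS + RSD gave 1 (Dcx) with DESeq2, 1 (Dcx) without the libraries rich in olfactory bulb genes, and 0 to 1 when leaving out an SS + RSD mouse. AA + RSD + minocycline against AA gave 1 with number series as a term (Eomes), where 833 of 21861 genes were called, against 11 without the term. Series B against A gave 2 with DESeq2, 0 with the share of reads outside genes and 3 (Dcx, Mki67 and Top2a) without the libraries of mice 5844, 5853, 7078 and 9631. The cortical field list as a term or leaving out hippocampal mice 9810 and 9812 reversed no member and moved no count of members. Over all genes, the list as a term gave 1099 calls in place of 643 for SS + RSD against SS. Without these mice SS + RSD + minocycline against SS + RSD gave 97 in place of 1234, and SS + RSD + minocycline against AA + RSD + minocycline 49 in place of 638. The replicate block changed no call between tissues other than that of Top2a in AA mice. A single number series gave no value where a compared group has no library in it. AA + RSD rests on 2 mice, and for Mki67, Top2a, Eomes and Igfbpl1 the few counts per library limit the precision.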
